A study of Arabidopsis thaliana with 21 samples.

Results

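The genes described here are 9 chaperones and folding enzymes of the endoplasmic reticulum (ER) and BZIP60, a transcription factor gene of the ER stress response, in Arabidopsis rosettes. They were chosen by locus identifier, with earlier results of these data known, and made up 10 of the 33341 loci counted. All 10 passed the filter on low counts, which left 19626 loci for testing. By role they are the BiP genes BIP1 (AT5G28540), BIP2 (AT5G42020) and BIP3 (AT1G09080), the ER-resident HSP90 gene HSP90.7 (AT4G24190), the lectin chaperone genes CNX1 (AT5G61790), CRT1A (AT1G56340) and CRT1B (AT1G09210), the protein disulfide isomerase genes PDIL1-1 (AT1G21750) and PDIL2-1 (AT2G47470), and BZIP60 (AT1G42990).

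The plants were soil-grown wild-type Col-0, 21 days old, raised at 22 °C and 100 µE in days of 16 h and nights of 8 h, then moved into sealed, aerated chambers for 1 night. The 7 groups were rosettes harvested in the dark before dawn (T0D), rosettes lit at the standard 100 µE for 2 h (T2L), 5 h (T5L) or 8 h (T8L), and rosettes lit at 500 µE, called high light, for 2 h (T2H), 5 h (T5H) or 8 h (T8H). A shorter distance to the same LED lamp gave the high light. T0D was the only dark group, so light and time of day cannot be told apart in comparisons with darkness. Each group had 3 libraries, labelled as biological triplicates, and how many plants made up a sample is not stated. A p-value here reflects only how far such samples differ from each other. In whole rosettes, fewer cells of a type and less RNA per cell cannot be told apart. All 4 leaf mesophyll markers were detected, with a summed level of 7503 to 30193 CPM per library (counts scaled to a common library size), and the 4 root markers summed to between 0 and 0.885 CPM. The genes lie at chr5:10540123-10543558 (BIP1), chr5:16807342-16810693 (BIP2), chr1:2929217-2931850 (BIP3), chr4:12551552-12556058 (HSP90.7), chr5:24827063-24829900 (CNX1), chr1:21089565-21092709 (CRT1A), chr1:2972638-2977002 (CRT1B) and chr1:16135723-16137463 (BZIP60) on the minus strand, and at chr1:7645610-7648855 (PDIL1-1) and chr2:19481254-19484015 (PDIL2-1) on the plus strand, in TAIR10.1.

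The ER is where secreted and membrane proteins fold. BiP is an Hsp70 that binds unfolded chains in the ER lumen, HSP90.7 is the ER form of HSP90, calnexin (CNX1) and the calreticulins (CRT1A, CRT1B) hold glycoproteins through their sugars, and protein disulfide isomerases form and rearrange disulfide bonds. When unfolded proteins accumulate, the unfolded protein response raises these genes in plants. One arm of it is the membrane sensor IRE1, which splices BZIP60 mRNA so that the protein can enter the nucleus. Another arm is the membrane-bound factor bZIP28, released by proteases in the Golgi. Both factors act through ER stress response elements (ERSE) and related motifs in promoters. Reads were counted over whole gene spans, introns included, which leaves spliced and unspliced BZIP60 mRNA in 1 value.

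Promoter sequence was read because 9 of the 10 genes followed a similar time course and BZIP60 did not. In windows from 250 bases before to 50 bases after the gene start (TAIR10.1, both strands searched), ERSE-I (CCAATNNNNNNNNNNCACG) was found in 5 of the 10 genes and in 0.849% of 27443 protein-coding genes. ERSE-II (ATTGG and CCACG with any 1 base between them) was found in BIP2 and in 0.0692% of all windows. The UPRE core (TGACGTG) was found in BIP2, HSP90.7, CNX1, CRT1A and PDIL1-1, and in 3.41% of all windows. In BIP2 it overlapped the ERSE-II match, and in CNX1 the ERSE-I match. The matches to ERSE-I and ERSE-II are printed below on the strand of their gene, with the fixed letters of the motif in capitals and the variable letters in lower case.
BIP3 upstream match: CGTGtctgcttgtgATTGG
BIP3 downstream match: CGTGtcaagaagtgATTGG
HSP90.7: CCAATacaaaactacCACG
CNX1: CGTGgcctgttatgATTGG
CRT1A: CGTGtatttaactaATTGG
PDIL1-1 upstream match: CGTGacgcttgtacATTGG
PDIL1-1 downstream match: CCAATtagagatagcCACG
BIP2 (ERSE-II): ATTGGtCCACG

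With the first base of the gene counted as 0, the BIP3 matches began at -174 (chr1:2932006-2932024) and -96 (chr1:2931928-2931946), and the HSP90.7 match at -22 (chr4:12556062-12556080). The CRT1A match began at -68 (chr1:21092759-21092777) and the CNX1 match at 21, within the gene (chr5:24829861-24829879). PDIL1-1 had matches at -187 (chr1:7645423-7645441) and 11 (chr1:7645621-7645639), and BIP2 at 20 (chr5:16810663-16810673). BIP1, CRT1B, PDIL2-1 and BZIP60 held no ERSE-I, ERSE-II or UPRE core in these windows. The stretch just before the annotated BIP1 start recurs before BIP2, farther from the BIP2 start. A BIP1 match past the end of its window would therefore be missed. A 5-base CCACG, which overlaps several of the matches above, was present in 7 of 10 windows and in 18.2% of all windows. TCATCG was present in BIP2 and BIP3 (8.63% of all windows), and the G-box CACGTG in BIP3, HSP90.7, CRT1A, PDIL1-1 and BZIP60 (7.68%), overlapping an ERSE-I match in BIP3, HSP90.7 and PDIL1-1. The heat shock element (GAA, TTC and GAA with any 2 bases between neighbours) was in none of the 10 and in 0.481% of all windows.

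**Figure D1:**
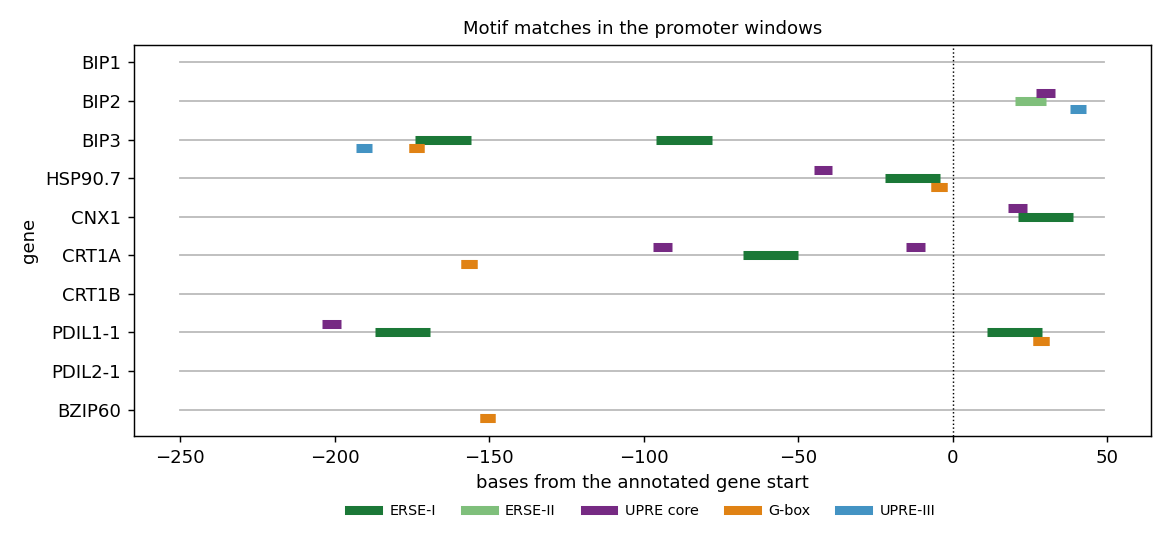
Motif matches in the promoter windows of the 10 genes, by distance in bases from the annotated gene start. ERSE-I (dark green) appears in BIP3, HSP90.7, CNX1, CRT1A and PDIL1-1, ERSE-II (light green) in BIP2, the UPRE core in purple, the G-box in orange and TCATCG (UPRE-III) in blue, while BIP1, CRT1B and PDIL2-1 carry no match of these kinds.

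The 250 bases before the gene are shown for BIP3, which had the widest range of levels over the groups, for BIP1, which rose over the day without these motifs in its window, and for BZIP60, which followed another course. All are on the minus strand of chromosomes 1 and 5, at chr1:2931851-2932100 for BIP3, chr5:10543559-10543808 for BIP1 and chr1:16137464-16137713 for BZIP60. Capitals mark the fixed letters of ERSE-I.
BIP3: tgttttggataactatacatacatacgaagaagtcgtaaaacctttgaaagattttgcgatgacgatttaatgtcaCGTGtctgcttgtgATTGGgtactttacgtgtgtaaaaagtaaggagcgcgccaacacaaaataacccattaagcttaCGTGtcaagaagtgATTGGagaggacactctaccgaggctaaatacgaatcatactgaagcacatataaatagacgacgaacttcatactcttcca
BIP1: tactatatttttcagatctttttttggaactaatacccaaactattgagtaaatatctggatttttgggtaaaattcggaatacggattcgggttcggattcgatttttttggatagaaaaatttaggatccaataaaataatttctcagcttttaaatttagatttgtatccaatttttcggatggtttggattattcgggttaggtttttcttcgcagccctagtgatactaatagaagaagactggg
BZIP60: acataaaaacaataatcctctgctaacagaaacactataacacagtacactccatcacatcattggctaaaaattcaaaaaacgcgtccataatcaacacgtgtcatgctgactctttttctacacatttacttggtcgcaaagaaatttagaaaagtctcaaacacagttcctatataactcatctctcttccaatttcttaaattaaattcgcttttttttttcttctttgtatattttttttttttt

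Total counts per library ran from 6545003 to 31449700. Nuclear ribosomal RNA, which the library kit depletes, took 0.0285 to 4.79% of the counts in 8 of the 9 libraries of T0D, T2H and T5H, and 30.6% in T5H replicate 3. It took 4.41 to 16.6% in T2L, 1.89 to 4.31% in T5L, 3.32 to 7.94% in T8L and 18.2 to 25% in T8H. T5H replicate 3 also stood apart from the other T5H libraries across the genome. Its chi-square per locus, scaled to counting error, was 497.3 and 319.1 against replicates 1 and 2, which had 30.76 between them. Its TMM scaling factor was 0.7004, against 1.24 and 1.245. The levels of all 9 chaperones differed in it too, as given below. Counts of the 10 genes that rest on T5H are given with and without T5H replicate 3, beside the share of all loci in the same fit. BIP1 and BIP2 share 370 stretches of 75 exon bases, which is the read length, equal to 13.4% of those of BIP1 and 14% of those of BIP2. Values of these 2 genes are therefore uncertain as to the copy, while BIP3 shares no such stretch with either. No gene on the same strand overlapped any of the 10. The summed leaf markers also moved with the groups, from 21234 to 30193 CPM in T0D to 8675 to 10265 in T8L and 7503 to 8423 in T8H, with 8134 to 27054 in T5H, and their part in the results was not tested.

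BiP transcripts rose from the end of the night through the day. BIP1 was at 64.6, 80.9 and 74.1 CPM in T0D (replicates 1, 2 and 3), 172, 163 and 192 in T2L, 350, 338 and 263 in T5L, and 491, 813 and 775 in T8L. The 4 groups did not overlap, and the mean rose with each step in standard light. In high light BIP1 was at 193, 294 and 185 CPM in T2H, 1045, 854 and 326 in T5H, and 433, 487 and 545 in T8H. Replicates 1 and 2 of T5H were above all other libraries of the series, and replicate 3 lay within the range of T5L. Against darkness, BIP1 rose by a log2 fold change of 1.26 ± 0.29 (SE) in T2L, 2.11 ± 0.30 in T5L and 3.24 ± 0.31 in T8L (edgeR quasi-likelihood test, adjusted p = 0.00116, 2.63e-06 and 8.46e-09). In high light the rise was 1.61 ± 0.29 at 2 h, 3.34 ± 0.31 at 5 h and 2.74 ± 0.31 at 8 h (adjusted p = 8.71e-05, 3.51e-09 and 7.42e-08).

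BIP2, the second of the near-identical BiP genes, was at 41.9, 48 and 53.1 CPM in T0D. It reached 90, 101 and 123 CPM in T2L, 204, 225 and 161 in T5L, and 397, 666 and 613 in T8L. In high light it was at 138, 213 and 146 CPM in T2H, 769, 602 and 245 in T5H, and 311, 339 and 389 in T8H. All T2H libraries were above all T2L libraries, all T5H above all T5L, and all T8H below all T8L. The ratio of the BIP2 level to the BIP1 level was 65.3% ± 6.22 in T0D and 80.6% ± 1.41 in T8L (SD, n = 3), against 71% ± 1.14 in T8H.

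BIP3, the BiP gene with little transcript in unstressed leaves, had the widest range of the 10, 17.9-fold between its lowest and highest group means. It was at 2.42, 2.52 and 2.58 CPM in T0D, 5.45, 1.17 and 0.774 in T2L, 9.13, 15.7 and 7.52 in T5L, and 24, 43.3 and 36.6 in T8L. In high light it was at 1.34, 3.03 and 1.42 CPM in T2H, 38.4, 38 and 17.1 in T5H, and 5.46, 6.44 and 11 in T8H. Every T5H library, replicate 3 included, was above every T5L library, and every T8H library was below every T8L and every T5H library. BIP3 did not pass the test against darkness at 2 h in either light (log2 fold change -0.25 ± 0.58 in T2L and -0.37 ± 0.55 in T2H). It rose by 2.1 ± 0.51 in T5L, 3.78 ± 0.52 in T8L, 3.64 ± 0.52 in T5H and 1.57 ± 0.52 in T8H (adjusted p = 0.00192, 6.48e-06, 7.16e-06 and 0.0167). Counts behind the lowest values were small, 11 to 44 per library in T2L and T2H. As a share of the BIP2 level, BIP3 stood at 5.3% ± 0.459 in T0D, 5.38% ± 1.39 in T5L, 6.18% ± 0.289 in T8L and 6.1% ± 1.02 in T5H. The share was 2.61% ± 3 in T2L, 1.12% ± 0.258 in T2H and 2.16% ± 0.578 in T8H.

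**Figure D2:**
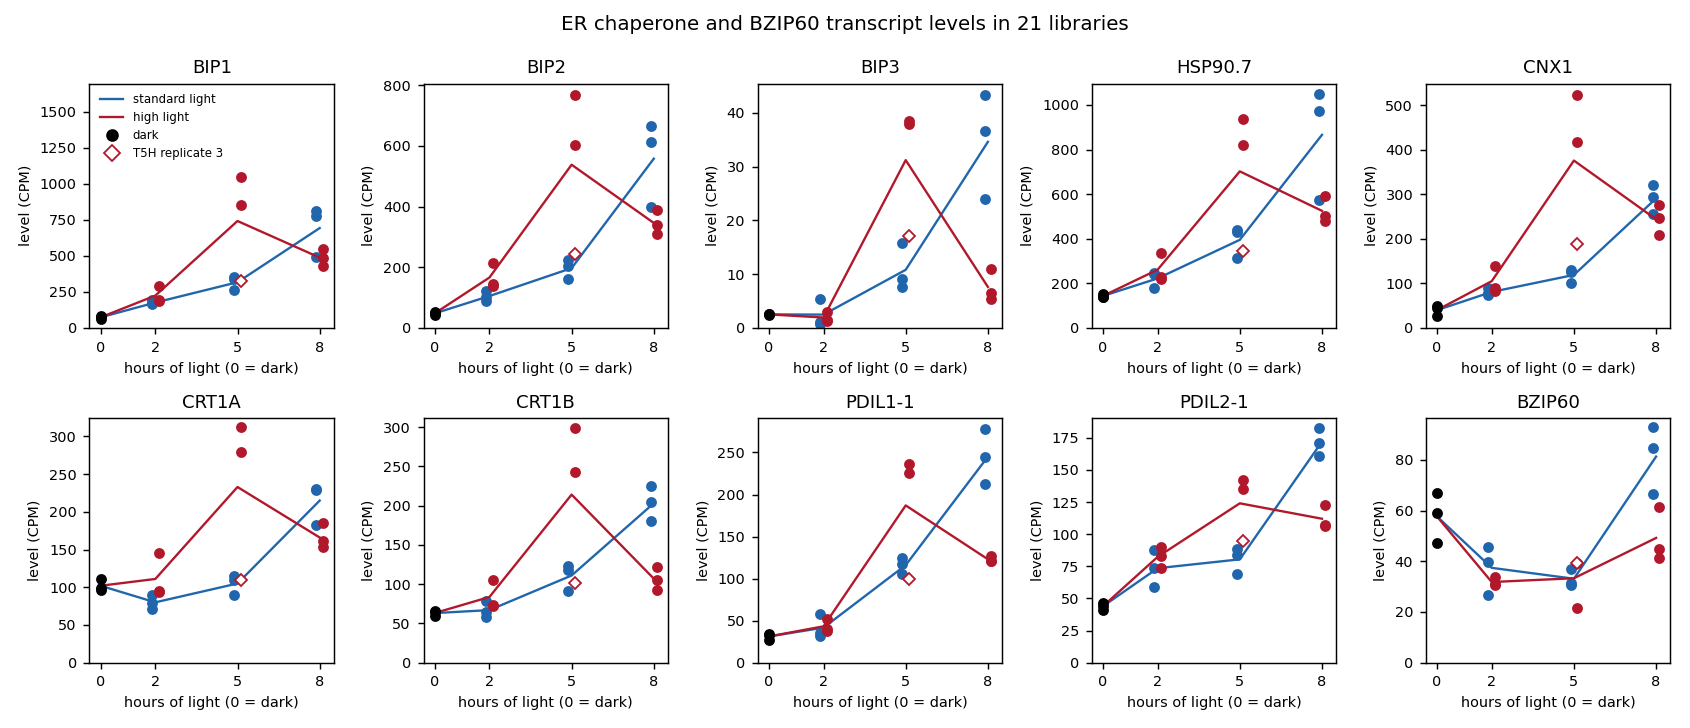
Transcript levels (CPM, linear axes from 0) of the 10 genes against hours of light, with 1 point per library, lines through group means, standard light in blue, high light in red and darkness in black. The open diamond is T5H replicate 3, which lies below the other T5H libraries for all 9 chaperones, and the blue and red lines cross between 5 and 8 h for the chaperones.

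HSP90.7, whose loss in Arabidopsis gives the shepherd phenotype of misshapen meristems, was at 150, 139 and 139 CPM in T0D, 243, 177 and 246 in T2L, 430, 441 and 314 in T5L, and 575, 1050 and 974 in T8L. It was at 218, 334 and 230 CPM in T2H, 821, 939 and 345 in T5H, and 480, 502 and 592 in T8H. Here too T5H replicate 3 lay inside the range of T5L, and T8H overlapped T8L. Per kilobase of exon, HSP90.7 had the highest level of the 10 genes in T8L, 286 ± 84.2 CPM per kb, with BIP1 at 244 ± 61.9, BIP2 at 205 ± 52.2, CNX1 at 133 ± 15.3 and BIP3 at 16.3 ± 4.6 (SD, n = 3). Reads in introns entered these counts.

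Among the lectin chaperones, CNX1, the membrane-bound calnexin, was at 27, 48.1 and 44.6 CPM in T0D, 130, 126 and 99.9 in T5L and 256, 322 and 295 in T8L. In high light CNX1 was at 83.6, 140 and 90.2 CPM in T2H, 524, 417 and 188 in T5H and 209, 246 and 276 in T8H. All T5H libraries, including replicate 3, were above all T5L libraries, while T8H overlapped T8L. CRT1A and CRT1B, the soluble calreticulins, had group means that spanned 2.91-fold and 3.4-fold, against 9.44-fold for CNX1. CRT1A was at 96.6, 98.6 and 111 CPM in T0D and at 71.5 to 89.6 in T2L, where its fold change did not pass the test (log2 -0.35 ± 0.26, adjusted p = 0.283). It was at 115, 110 and 89.8 CPM in T5L, against 312, 279 and 109 for T5H libraries, so the high replicates exceeded T5L and replicate 3 did not. Its level was 183, 229 and 231 CPM in T8L and 153, 161 and 185 in T8H. CRT1B was at 59.7, 65.7 and 64 CPM in T0D, 118, 123 and 91.8 in T5L, and 181, 225 and 204 in T8L. In high light CRT1B was at 299, 243 and 101 CPM in T5H and 93.1, 105 and 122 in T8H. All T8H libraries of CRT1B were below all T8L libraries. The ratio of CRT1B to CRT1A was 62% ± 4.59 in T0D, 106% ± 5.33 in T5L, 95% ± 5.79 in T8L and 64.1% ± 2.8 in T8H. The 3 ratios of T8H, from 60.9 to 66%, lay within the range of T0D, from 57.5 to 66.7%.

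PDIL1-1, a protein disulfide isomerase, was at 26.7, 32.4 and 34.2 CPM in T0D, 125, 117 and 105 in T5L, 212, 278 and 245 in T8L, 236, 225 and 100 in T5H, and 121, 121 and 127 in T8H. It showed no overlap between T8H and T8L, and the T8H libraries lay close to those of T5L. PDIL2-1, an isomerase of another subclass, was at 40.8, 44.1 and 46.5 CPM in T0D, 88.6, 83.4 and 69.3 in T5L, 161, 183 and 171 in T8L, 135, 142 and 94.5 in T5H, and 106, 107 and 123 in T8H. All T5H libraries of PDIL2-1 were above all T5L libraries, and all T8H libraries below all T8L libraries. The ratio of PDIL1-1 to PDIL2-1 was 70.9% ± 4.7 in T0D and 56.2% ± 11.5 in T2L, but 144% ± 6.93 in T5L and 142% ± 10.1 in T8L. In T8H the ratio was 110% ± 5.91.

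BZIP60 was lower in the first hours of light than in darkness. It was at 59, 47.1 and 67.1 CPM in T0D, 45.7, 39.9 and 26.5 in T2L, 30.8, 37 and 31.6 in T5L, and 66.4, 92.8 and 84.7 in T8L. In high light it was at 31, 33.6 and 30.8 CPM in T2H, 21.4, 39.3 and 39.2 in T5H, and 41.3, 44.7 and 61.6 in T8H. The T2L, T5L, T2H and T5H libraries all lay below those of T0D, and T8L was above T5L and above T8H without overlap. BZIP60 fell against darkness by a log2 fold change of -0.63 ± 0.23 in T2L, -0.80 ± 0.23 in T5L, -0.86 ± 0.23 in T2H and -0.80 ± 0.23 in T5H (adjusted p = 0.0267, 0.00509, 0.00333 and 0.00521). At 8 h it did not pass in either light (0.49 ± 0.22 in T8L and -0.23 ± 0.22 in T8H, adjusted p = 0.0769 and 0.409). In the order of its 7 group means, from T2H through T5L, T5H, T2L, T8H and T0D to T8L, every neighbouring pair overlapped.

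From 5 h of light on, most of the chaperones were above darkness in both lights. In T2L, 5 of the 10 genes were called, 4 higher (BIP1, BIP2, CNX1 and PDIL2-1) and BZIP60 lower, where 42.4% of all loci were called, 21.1% higher and 21.4% lower. In T5L it was 9 of 10, with 8 higher and BZIP60 lower, beside 46.7% of all loci (22.9% higher and 23.8% lower). In T8L 9 of 10 were called, all higher, beside 42.9% of all loci and 21.1% higher. In T2H 6 of 10 were called, 5 higher and BZIP60 lower, beside 43.3% of all loci (21.8% higher and 21.5% lower). In T5H all 10 were called, 9 higher and BZIP60 lower, beside 47.2% of all loci (24.3% higher and 22.8% lower), and without replicate 3 all 10 were again called, beside 46.5% of all loci. In T8H 9 of 10 were called, all higher, beside 47.3% of all loci and 23.4% higher. The median log2 change of the 10 genes was 0.53, 1.52 and 2.73 in T2L, T5L and T8L, and 0.67, 2.44 and 1.72 in T2H, T5H and T8H, beside medians of all loci within 0.03 of 0. These 6 comparisons share the T0D libraries, and in them light and time of day change together. All 10 genes differed among the 7 groups in the joint test, as did 69.3% of all loci.

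In T8L all 10 genes, BZIP60 included, were above T5L without overlap, as were 25.1% of all loci. Between T5H and T8H, BIP3 was lower without overlap (18.2% of all loci) and BZIP60 higher without overlap (16%), and the other 8 genes overlapped. With T5H reduced to replicates 1 and 2, the 9 chaperones were lower without overlap, as were 29.6% of all loci, and BZIP60 was higher (27.5%). The order of group means ended with T8L as the highest in 6 of the 10 genes and with T5H in BIP1, CNX1, CRT1A and CRT1B, and in all of these but PDIL2-1 the highest group overlapped the next. T2L was above T0D without overlap in BIP1, BIP2, HSP90.7, CNX1 and PDIL2-1, as in 22.9% of all loci.

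High light was compared with standard light at each time to see how these transcripts differed between the lights. At 2 h none of the 10 genes was called by edgeR, where 2.66% of all loci were. At an unadjusted p under 0.05 it was 1 gene, BIP2 (log2 fold change 0.66 ± 0.29, adjusted p = 0.22), beside 18.4% of all loci, and DESeq2 and limma voom also called 0. The median was 0.28, with 8 of 10 values above 0. T2H was above T2L without overlap in BIP2 and CRT1A, as in 10.5% of all loci.

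At 5 h, 7 of the 10 genes were higher in high light, where 12% of all loci were called and 7.29% were called higher. CNX1 rose by a log2 fold change of 1.67 ± 0.28 (adjusted p = 0.000487), a ratio of 3.18. BIP3 rose by 1.54 ± 0.46 (adjusted p = 0.0327), BIP2 by 1.45 ± 0.29 (0.00225) and BIP1 by 1.23 ± 0.29 (0.00741). CRT1A, CRT1B and PDIL2-1 rose by 1.15 ± 0.26, 0.95 ± 0.26 and 0.62 ± 0.18 (adjusted p = 0.0051, 0.0171 and 0.0218). HSP90.7 (0.83 ± 0.28) and PDIL1-1 (0.70 ± 0.24) did not pass, with adjusted p = 0.0538 and 0.0622, and BZIP60 had a value of 0.0016 ± 0.23. The median was 1.05, beside 0.02 over all loci. T5H was above T5L without overlap in 4 genes (BIP2, BIP3, CNX1 and PDIL2-1), as in 14.9% of all loci. With replicates 1 and 2 of T5H alone, this held for the 9 chaperones and for 28.3% of all loci, fewer libraries making a gap more frequent.

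The 5 h difference was larger without T5H replicate 3. In that fit 9 of 10 genes were called, all but BZIP60, and the median was 1.36, but the share of all loci called also rose, from 12% to 23.2%. Without T5H replicate 1 only BIP2 and CNX1 were called, beside 4.24% of all loci. Without T5H replicate 2 or T5L replicate 3 only BIP1, BIP2, CNX1 and CRT1A were called, beside 7.72 and 6.19%. The share of ribosomal RNA moved with the groups. With that share as a covariate BIP1, BIP2, CNX1 and CRT1A were called, beside 7.38% of all loci, and the median was 0.58. A fit on T5H and T5L alone, with 17934 loci, called CNX1, beside 4% of those loci. Scaled over nuclear protein-coding loci alone, BIP1 was at 1532 ± 754 CPM in T5H and 663 ± 99.2 in T5L. In that fit 8 genes were called, beside 12.3% of the loci tested.

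At 8 h the direction was opposite, and 5 of the 10 genes were lower in high light, where 15.4% of all loci were called and 7.62% were called lower. BIP3 fell by a log2 fold change of -2.21 ± 0.48 (adjusted p = 0.00355), from 34.6 ± 9.78 CPM in T8L to 7.62 ± 2.95 in T8H (SD, n = 3). PDIL1-1 fell by -0.99 ± 0.25, CRT1B by -0.93 ± 0.26, BZIP60 by -0.73 ± 0.22 and PDIL2-1 by -0.62 ± 0.18 (adjusted p = 0.00714, 0.0151, 0.0287 and 0.0174). The other 5 had values below 0 but did not pass, namely HSP90.7 at -0.72 ± 0.28, BIP2 at -0.69 ± 0.29, BIP1 at -0.51 ± 0.29, CRT1A at -0.37 ± 0.25 and CNX1 at -0.25 ± 0.27 (adjusted p = 0.0831, 0.107, 0.256, 0.372 and 0.601). T8H was below T8L without overlap in BIP2, BIP3, CRT1B, PDIL1-1, PDIL2-1 and BZIP60, as in 24.2% of all loci. With the ribosomal RNA share as a covariate the same 5 genes were called, beside 17% of all loci. That share did not overlap between T8L and T8H, and its slope in the fit rests on spread within groups, which was widest in T5H. Without T8L replicate 2, T8H replicate 1 or T8H replicate 2, only BIP3 and PDIL1-1 were called, beside 8.3, 8.31 and 8.68% of all loci.

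**Figure D3:**
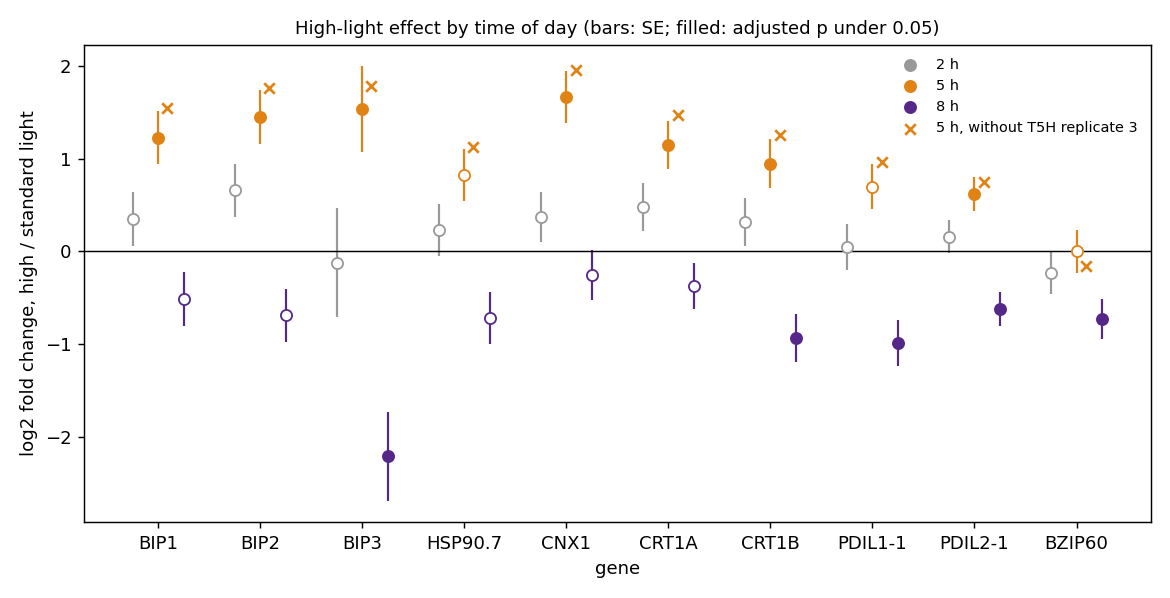
Log2 fold change of high against standard light at 2 h (grey), 5 h (orange) and 8 h (purple) for each gene, with SE bars, filled where the adjusted p was under 0.05. Crosses give the 5 h value without T5H replicate 3. The 9 chaperones are above 0 at 5 h and below 0 at 8 h, and BIP3 spans the widest range, from 1.54 to -2.21.

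The difference between the high-light effects at 8 h and at 5 h was tested directly, a comparison added after the levels had been seen. It was negative in all 10 genes and was called in the 9 chaperones, where 2.13% of all loci were called and 1.53% were called lower. BIP3 had the widest difference, -3.75 ± 0.66 on the log2 scale (adjusted p = 0.00831), and BIP2 had -2.14 ± 0.41 (0.00944). CNX1 had -1.92 ± 0.39, CRT1B -1.88 ± 0.36, BIP1 -1.73 ± 0.41 and PDIL1-1 -1.69 ± 0.35 (adjusted p = 0.0134, 0.0103, 0.028 and 0.0141). HSP90.7, CRT1A and PDIL2-1 had -1.55 ± 0.40, -1.52 ± 0.36 and -1.24 ± 0.25 (adjusted p = 0.0398, 0.029 and 0.0125), and BZIP60 had -0.73 ± 0.32 (0.242). The median of the 10 was -1.71, beside -0.01 over all loci.

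Without T5H replicate 3 the same 9 genes were called, with a median of -1.98, where 12.1% of all loci were called in place of 2.13%. Over the fits that left out 1 library, 58 to 2429 loci were called, or 0.288 to 12.1%. With the ribosomal RNA share as a covariate none of the 9 was called, their values ran from -3.20 to -0.78 and their adjusted p from 0.0541 to 0.311, and 41 loci in all were called in place of 419. Only BIP2, BIP3 and CRT1B were called without T5L replicate 3, T8L replicate 2, T5H replicate 1, or T8H replicate 1 or 2. In those fits 0.288 to 0.473% of all loci were called. A fit on the 4 groups alone called 6 genes, beside 2.63% of all loci.

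Between 8 and 2 h the high-light effect differed in 3 of the 10 genes, BIP2 (-1.35 ± 0.40), CRT1B (-1.25 ± 0.36) and PDIL2-1 (-0.78 ± 0.25), with adjusted p = 0.0349, 0.0282 and 0.045, where 10.2% of all loci were called and 5.14% were called lower. None was called with the ribosomal RNA share as a covariate, or without T2L replicate 2, T2H replicate 2, T8L replicate 2 or 3, or T8H replicate 1 or 2. In those fits 5.3 to 9.08% of all loci were called. Without T2L replicate 1 only BIP3 was called, beside 7.64% of all loci. Without T5H replicate 3, 7 genes were called, beside 13.2% of all loci. Between 5 and 2 h none of the 10 was called by edgeR, where 0.759% of all loci were. At an unadjusted p under 0.05 it was 3 genes, beside 14.1% of all loci. DESeq2 called 1, beside 1.77% of all loci, and limma voom called 0, beside 1.04%. Without T5H replicate 3 edgeR called 5, beside 3.87% of all loci. Averaged over the 3 times, BIP2 (0.47 ± 0.16), CNX1 (0.60 ± 0.16) and CRT1A (0.42 ± 0.15) were higher in high light (adjusted p = 0.0405, 0.0086 and 0.0419), where 21.9% of all loci were called and 12% were called higher. That count was 1, CNX1, with the ribosomal RNA share as a covariate or with limma voom, beside 18.1 and 26.1% of all loci. It was also CNX1 alone without T2L replicate 1 or 2, T5L replicate 1 or 3, or T8L replicate 1 or 3. The same held without T2H replicate 2, T5H replicate 1 or 2, or T8H replicate 2. In these leave-out fits 16.9 to 20.8% of all loci were called. Without T5H replicate 3, 5 genes were called, beside 27.5% of all loci.

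The authors' deposited table, which lists genes past a false discovery rate of 0.05 against a minimum fold that is not stated, holds BIP2 (log2 fold change 1.46, FDR 0.0383) and CNX1 (1.67, FDR 0.00913) among 307 genes at 5 h. At 8 h the authors' deposited table holds BIP3 (-2.20, FDR 0.0223) among 603 genes, and at 2 h none of the 10 among 24. Against darkness the authors' deposited table lists 2, 6 and 9 of the 10 genes in T2L, T5L and T8L, among 4699, 5788 and 4926 genes. In T2H, T5H and T8H the authors' deposited table lists 4, 9 and 7 of them, among 5054, 6167 and 5845 genes, and it lists BZIP60 in no comparison.

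Across the 21 libraries, which share the day course and the differences in ribosomal RNA, the levels of the 9 chaperones were correlated. Pearson's r of log2 CPM over their 36 pairs ran from 0.719 to 0.993 with a median of 0.903. BZIP60 had r between 0.026 and 0.323 with the 9 chaperones, with a median of 0.182. Outside the 10 genes, the loci most like BIP2 were AT4G16660, an Hsp70 family gene (r = 0.974), PDIL1-2, a protein disulfide isomerase (0.959), AT4G29520 and AT2G47390 (0.948 each), and GSTF9, a glutathione transferase (0.946). The locus most like BIP3 was the calnexin gene CNX2 (AT5G07340, r = 0.954), which is among the other ER lectin genes read below. Next for BIP3 were UXS4, a UDP-xylose synthase (0.911), the glutamine synthetase gene GSR 1 (0.908), the receptor-like protein gene RLP42 (0.895) and AT5G35735 (0.889). For BZIP60 the most similar loci were the flotillin gene FLOT1 (0.917), AT1G69840 (0.897), GSTZ1, a glutathione transferase (0.885), the ion channel gene CNGC13 (0.884) and the zinc finger gene ZAT7 (0.881).

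A further 39 genes of ER quality control and of the unfolded protein response were read from lists of sensors, transcription factors, co-chaperones, lectins, disulfide enzymes, degradation and survival genes. Of these, 38 passed the filter. BZIP49, with 66 counts over all libraries, did not. At 5 h, 6 of 38 were higher in high light and 2 lower, with a median of -0.12, where 12% of all loci were called in either direction. At 8 h, 12 were lower and none higher, with a median of -0.48 and 33 of 38 values below 0, where 15.4% of all loci were called and 7.62% were lower. At 2 h, 1 was lower, where 2.66% of all loci were called. With only the compared groups fitted, 1 was called at 5 h and 20 at 8 h, beside 4% and 36.2% of all loci, and limma voom called 12 at 5 h and 15 at 8 h, beside 20% and 18.9%. Without T5H replicate 3, 9 were higher and 6 lower at 5 h, beside 23.2% of all loci called. At 8 h 13 were lower in that fit, beside 18%. With the ribosomal RNA share as a covariate, 2 were higher and 1 lower at 5 h, beside 7.38%. That fit had 12 lower at 8 h, beside 17%. Without T8L replicate 2, T8L replicate 3 or T8H replicate 1 the count at 8 h was 4, beside 8.3, 9.63 and 8.31%. It was 5 without T8H replicate 2, beside 8.68%. At 5 h the count was 1 without T5H replicate 1, beside 4.24% of all loci. It was 2 without T5H replicate 2 (7.72%) or T5L replicate 3 (6.19%), 3 without T5L replicate 1 (5.45%) and 4 without T5L replicate 2 (6.36%).

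Among the 10 disulfide enzymes tested, PDIL1-2 and PDIL1-3 rose at 5 h and fell at 8 h, which the list as a whole did not. At 5 h the 10 had a median of -0.24, with 4 values above 0 and 6 below. At 8 h their median was -0.27, again with 4 values above 0 and 6 below. In T5L PDIL1-2 was at 44, 52.6 and 32 CPM, and T5H libraries had 101, 112 and 40.8, a rise of 0.99 ± 0.27 (adjusted p = 0.0195), and at 122, 171 and 148 in T8L and 56.9, 67.8 and 74.8 in T8H, a fall of -1.15 ± 0.27 (0.00542). T8H was below T8L without overlap, and T5H replicate 3 lay within T5L. PDIL1-3 rose by 0.71 ± 0.23 at 5 h (adjusted p = 0.0395) and fell by -1.10 ± 0.23 at 8 h (0.00168). It was at 27.8, 26.2 and 23.8 CPM in T5L and 54.8, 47.1 and 24.6 in T5H, where replicate 3 again lay within T5L. PDIL2-2 rose by 1.41 ± 0.29 at 5 h (0.00247), with a value of -0.40 ± 0.27 at 8 h that did not pass. ERO1, the oxidase that returns these isomerases to their oxidised form, was at 17.7, 27.7 and 23.7 CPM in T8L and 5.95, 7.77 and 10.5 in T8H, without overlap, and fell by -1.53 ± 0.33 (0.00272). The difference between 8 and 5 h was called for PDIL1-2 (-2.14 ± 0.38, adjusted p = 0.00675), PDIL1-3 (-1.81 ± 0.32, 0.00626) and PDIL2-2 (-1.82 ± 0.39, 0.0198), and not for ERO1 (-1.33 ± 0.48, 0.145). With the ribosomal RNA share as a covariate none of the 38 was called for this difference, with adjusted p = 0.0554, 0.0526 and 0.136 for PDIL1-2, PDIL1-3 and PDIL2-2. PDIL2-2 was also not called without T5L replicate 3, T8L replicate 2 or 3, T5H replicate 1 or 2, or T8H replicate 1 or 2.

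CRT3, a calreticulin needed for folding of an immune receptor, was at 445, 535 and 476 CPM in T8L and 189, 193 and 294 in T8H. It fell by -1.11 ± 0.20 at 8 h (adjusted p = 0.00047), with a value of -0.08 ± 0.20 at 5 h that did not pass. ERDJ3B, a BiP co-chaperone of the J-domain type, rose by 0.88 ± 0.23 at 5 h (0.012). ERDJ2B, a J-domain protein of the ER membrane, was lower in high light at 2 h (-0.76 ± 0.19, adjusted p = 0.0343), at 5 h (-0.76 ± 0.19, 0.0111) and on the average of the 3 times (-0.66 ± 0.11, 0.000157). At 2 h ERDJ2B was not called with limma voom, with the compared groups alone, with the ribosomal RNA share as a covariate, without T2L replicate 1, or when any 1 of the T2H libraries was left out, with values from -0.80 to -0.48 and adjusted p from 0.0533 to 0.253. IRE1A, for 1 form of the IRE1 sensor that splices BZIP60 mRNA, was at 17.4, 17.9 and 18 CPM in T5L. Its T5H libraries, at 10.5, 11.3 and 12.8, were lower without overlap. IRE1A fell at 5 h (-0.63 ± 0.20, adjusted p = 0.0358) and at 8 h (-0.61 ± 0.19, 0.0319), and on the average by -0.52 ± 0.11 (0.00185).

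**Figure D4:**
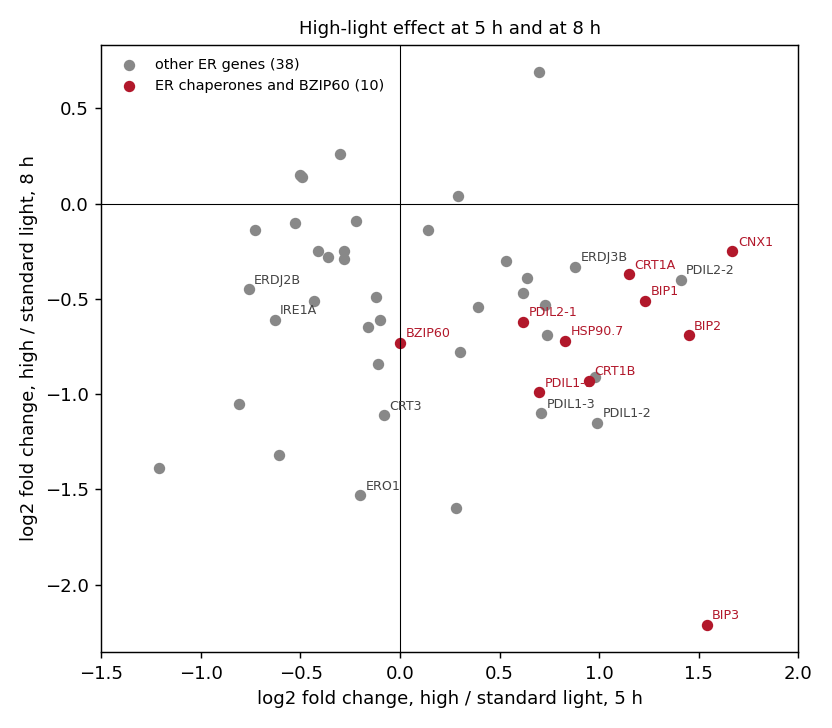
Log2 fold change of high against standard light at 5 h (x) and 8 h (y) for the 10 genes (red) and the 38 other ER genes tested (grey), with the 8 other genes of the text labelled. The chaperones lie to the right of 0 and below 0, as do PDIL1-2 and PDIL1-3, while IRE1A and ERDJ2B lie to the left and below.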

How the data were processed

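RNA of 21 rosette libraries (7 groups of 3) was sequenced as single-end 75-base reads after ribosomal RNA depletion with a strand-specific kit, per the labels' protocols. Tools named in the submitters' processing notes are edgeR, featureCounts, SAMtools 1.3.1, Subread 1.5.0, Trim Galore 0.4.4 and FastQC 0.11.7. The authors counted reads in reverse-stranded mode over each gene's span, without the option for multi-mapped reads, per the file headers, and deposited raw counts for 33341 loci. No source used here states the genome build, and 32896 of 32897 loci matched by locus tag had the same span in TAIR10.1. A table of comparisons deposited by the authors holds log2 fold changes and adjusted p-values from edgeR's glmTreat.

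Counts were scaled by TMM, and filterByExpr left 19626 loci. A quasi-likelihood F test (edgeR 4.0.16, R 4.3.3, robust, all 21 libraries, 1 coefficient per group) gave p-values adjusted by Benjamini-Hochberg over all loci, and calls were made at 0.05. Standard errors were derived from the fold change and F. CPM levels use TMM-scaled totals. Alternatives were DESeq2 1.42.0, limma 3.58.1 voom, DESeq2 size factors, no filter, fits on the compared groups, nuclear protein-coding loci, ribosomal RNA share as a covariate, a replicate block and libraries left out. The covariate was the centred log2 of the ribosomal RNA percentage. Totals of 6545003 to 31449700 counts set the precision, and every pair of replicates differed by more than counting error. Genes outside the 10 were named by rule: of the other ER genes, the 8 smallest p-values among those called in a high-light comparison, and the 5 loci with the highest correlation to BIP2, BIP3 and BZIP60. The members and lists were chosen with earlier results of these data known. The deposited log2 RPKM table was not used.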

Additional observations from a re-analysis of the deposited data

Results flagged for a closer look

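The difference of the high-light effect between times passed the test in the chaperones. Between 8 and 5 h it was -1.73 on the log2 scale for BIP1, -2.14 for BIP2, -3.75 for BIP3, -1.55 for HSP90.7, -1.92 for CNX1, -1.52 for CRT1A, -1.88 for CRT1B, -1.69 for PDIL1-1 and -1.24 for PDIL2-1. Between 8 and 2 h it was -1.35 for BIP2, -1.25 for CRT1B and -0.78 for PDIL2-1. In each case the effect at 8 h was below that at the earlier time by a test of the difference itself. The comparison of 8 with 5 h was added after the levels had been seen, so its test is not independent support. Of all loci, 2.13% were called between 8 and 5 h and 10.2% between 8 and 2 h. The libraries of T8H held 18.2 to 25% ribosomal RNA and T5H replicate 3 held 30.6%. With that share as a covariate 0 of these 12 differences passed, beside 0.209% of all loci for 8 minus 5 h and 5.3% for 8 minus 2 h.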

How the results depend on the processing

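Counts against darkness and in the joint test stayed within 1.5 times under every alternative run, apart from the ranges below. Shares of all loci called in the same fit are in brackets. With the ribosomal RNA share as a covariate, 4 of 10 genes were called at 5 h (7.38%) and 1 on the average of the 3 times (18.1%). That fit called 1 for 5 minus 2 h (2.2%), 0 for 8 minus 2 h (5.3%) and 0 for 8 minus 5 h (0.209%). With only the compared groups fitted, the counts were 1 at 5 h (4%), 1 on the average (22.9%) and 5 for 8 minus 2 h (14.2%). With limma voom 1 was called on the average (26.1%). DESeq2 called 1 for 5 minus 2 h (1.77%) and 5 for 8 minus 2 h (9.3%). Without the filter 2 were called for 5 minus 2 h (2.44%). Leaving out 1 library, the counts ran from 2 to 9 at 5 h, 2 to 7 at 8 h and 1 to 5 on the average. Shares of all loci in those fits were 4.24 to 23.2%, 8.3 to 18% and 16.9 to 27.5%. The counts ran from 0 to 5 for 5 minus 2 h, 0 to 7 for 8 minus 2 h and 3 to 9 for 8 minus 5 h. There the shares were 0.119 to 3.87%, 5.46 to 13.2% and 0.288 to 12.1%. Against darkness the counts ran from 4 to 6 in T2L, 5 to 7 in T2H and 6 to 9 in T8H, beside shares of 35.8 to 44.2%, 37.2 to 45% and 39 to 49%. The comparison of 8 with 5 h, and leaving T5H replicate 3 out of comparisons without T5H, were chosen after seeing the data. Leaving out a library leaves fewer samples, and the cause of the other changes was not tested.

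The values that changed sign were all of genes that were not called. With the ribosomal RNA share as a covariate, the 2 h values became -0.19 for BIP1, -0.22 for HSP90.7, -0.10 for CNX1, -0.05 for CRT1A, -0.17 for CRT1B, -0.36 for PDIL1-1 and -0.08 for PDIL2-1. The averages became -0.11 for HSP90.7, -0.12 for CRT1B and -0.05 for PDIL2-1, CNX1 became 0.06 for 8 minus 2 h, and against darkness at 2 h BIP3 became 0.04 and CRT1A 0.02 in T2L and -0.03 in T2H. The 2 h value of BIP3 was 0.40 with voom. For BZIP60 the 5 h value was -0.01 without the filter, on nuclear coding loci or with the replicate block, -0.08 with voom and -0.0013 with the compared groups alone. Leaving out 1 library gave -0.61 to 0.99 for BIP3 and -0.11 to 0.36 for PDIL1-1 at 2 h, -0.17 to 0.23 for BZIP60 at 5 h, and -0.43 to 0.11 for BIP3 and -0.15 to 0.02 for PDIL1-1 on the average. Against darkness it gave -1.35 to 0.25 for BIP3 and -0.03 to 0.18 for CRT1B in T2L, -0.03 to 0.14 for CRT1A in T5L and -0.05 to 0.24 for CRT1A in T2H.

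Replicate numbers were not used as pairs, since same-numbered libraries had a mean correlation of deviations of 0.00235 over 63 pairs and 6 of 21 libraries correlated best with their own number. With the replicate block, 7 of 10 genes were called at 5 h and 5 at 8 h, beside 11.8 and 14.8% of all loci. On the average 2 were called, beside 21.4%, which is close to the share of all loci. For 8 minus 2 h it was 2, beside 9.32%, and for 8 minus 5 h it was 8, beside 1.65%.

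Over all loci, counts moved by over 1.5 times at 2 h (523, against 1336 without the filter, 1057 with DESeq2, 163 with the compared groups and 178 with the covariate), at 5 h (2361, against 3916, 718 and 1449 with voom, the compared groups and the covariate) and at 8 h (3025, against 6455 with the compared groups). They also moved for 5 minus 2 h (149, against 707, 513, 24 and 432 without the filter, with DESeq2, the compared groups and the covariate), 8 minus 2 h (2003, against 1040 with the covariate) and 8 minus 5 h (419, against 1121, 955, 1061 and 41 without the filter, with DESeq2, voom and the covariate).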

Other observations

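The ER genes TIN1, BZIP28 and SDF2 are given as values, chosen after their values were seen. TIN1, a gene induced by the ER stress agent tunicamycin, was at 11.3, 17 and 13.3 CPM in T8L and at 2.43, 3.16 and 8.45 in T8H, and fell by a log2 fold change of -1.60 ± 0.48 (edgeR, adjusted p = 0.0248). BZIP28, for the other membrane-bound factor of the response, was at 22.3, 28.1 and 25.8 CPM in T8L and 13.5, 12.6 and 18.4 in T8H, and fell by -0.78 ± 0.25 (0.0318). SDF2, for an ER luminal partner of J-domain co-chaperones, rose by 0.98 ± 0.26 at 5 h and fell by -0.91 ± 0.26 at 8 h (adjusted p = 0.0177 and 0.0197). It was at 21.3, 23.1 and 22.2 CPM in T5L and 57.3, 52.5 and 20.5 in T5H. The rise at 5 h thus rests on T5H replicates 1 and 2, and replicate 3 lay below every T5L library. At 8 h SDF2 was at 54.2, 59.6 and 62.4 CPM in T8L and 27.2, 29.1 and 37.5 in T8H.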
